A study of Mus musculus with 30 samples.

Results

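Chemokines, interleukins and their receptors are the signalling proteins by which cells of a tissue attract and instruct cells of the immune system. Chemokines are small secreted proteins that bind G-protein-coupled receptors (Ccr and Cxcr genes) and steer the migration of leukocytes and stem cells. Interleukins act through receptor chains that pass the signal to Janus kinases and STAT factors or, for the interleukin 1 and 17 families, through adaptor proteins to the transcription factor NF-kappaB. Fibroblasts are a known source of several of them, above all the monocyte attractant Ccl2, the stromal factor Cxcl12, the neutrophil attractants Cxcl1 and Cxcl5, and the cytokines Il6 and Il11.

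The genes described here were all those on the array whose symbol names a numbered Ccl, Cxcl, Ccr or Cxcr gene, Cx3cl1, a numbered interleukin or an interleukin receptor. The rule found 129 of 26423 probes, which stand for 113 of 19084 named genes. They were 17 CC chemokines, 13 CXC chemokines, Cx3cl1, 16 chemokine receptors, 29 interleukins and 37 interleukin receptors or antagonists. Members whose symbol follows another pattern, such as Lif, Csf1 and Pf4, were kept apart in a list of related cytokines.

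The samples were 30 cultures of mouse cells in a study that made pluripotent cells with small molecules alone. Chemically induced pluripotent stem cell (CiPSC) lines gave 11 samples: CiPS34, CiPS50, CiPS21, CiPS45 and a control line from mouse embryonic fibroblasts (MEF), CiPS WT1 and CiPS WT2 from wild-type MEF, MNF CiPS7 and MNF CiPS1 from neonatal fibroblasts, MAF CiPS3 from adult lung fibroblasts and ADSC CiPS2. The title of ADSC CiPS2 names adipose-derived stem cells and its source name names adult lung fibroblasts. The labels code the small-molecule mixes by letters: VC6TFMP+Z (CiPS34), VC6TFS+Z (MNF CiPS7), VC6F+Z (CiPS50), VC6TFDBS+Z (CiPS21), VCT6FMDBR+Z (MNF CiPS1), VC6TFDM+Z (MAF CiPS3), FC6+Z (CiPS45), VC6TFMPS+Z (ADSC CiPS2 and both WT lines) and VC6TF+Z (the control line). Induced pluripotent lines from MEF gave 2 OSKM iPSC samples, labelled as untreated with chemicals, and 2 SKM-FSK iPSC samples, treated with F. Embryonic stem cells (ESC) gave 5 untreated samples, 4 of line R1 and 1 of line TT2. Untreated somatic cells gave 7 samples: MEF1, MEF2, MEF3, WT MEF, neonatal fibroblasts (MNF), adult lung fibroblasts (MAF) and adipose-derived stem cells (ADSC). MEF under treatment were sampled once each on day 12 (VC6TF) and on days 20 and 32 (VC6TF+Z). Each line was a single line, and per the labels all pluripotent cells, ESC included, were grown on a layer of mitomycin-treated MEF, so some RNA of fibroblasts can be present in every pluripotent sample.

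The authors normalized the samples in 5 separate sets of 7, 9, 4, 4 and 6, so levels are set side by side only within a set. The samples of a set had nearly equal medians, between 109 and 359 intensity units over all sets. The tables of the sets listed 13989 to 26397 probes, and 49, 63, 60, 87 and 113 of the member genes were listed in sets 1 to 5, with 44 in all of them. Why a probe was left out of a set is not given, and a gene can have been listed because it was bright in 1 group, so counts over the listed members describe those only. Values under 16 were set to 16. They made up at most 0.847% of values in sets 1 to 4 and 18.5 to 18.7% in set 5. In set 5 a very low reading can be a failed one: Pdgfra read 0.1 on day 20, between 15180 on day 12 and 3574 on day 32. All 6 pluripotency markers tested were higher in CiPSC than in somatic samples, and 6 of 7 fibroblast markers and 6 of 7 macrophage markers were lower. In set 5 not every marker followed the labels: Pou5f1 read 24.2 in the control line and 140.5 in ESC5, against 61.0 in MEF3 and 389 on day 32. Esrrb read 25958 in the control line and 27782 in ESC5, against 91.0 in MEF3. Of the fibroblast markers in MEF3, Col6a1 read 23990, Thy1 20738 and Dcn 8278, while Col1a1 read 9.92 and Lum 81.2.

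Members lie in rows of neighbouring genes. On chromosome 11 the order is Ccl2, Ccl7, Ccl11, Ccl12, Ccl8 and Ccl1, and elsewhere on it Ccl5, Ccl9, Ccl6, Ccl3 and Ccl4. On chromosome 5 Cxcl5, Ppbp, Pf4, Cxcl3, Cxcl15, Cxcl1 and Cxcl2 follow each other. The promoters of 4 members that this text returns to are shown because each holds 1 match to GGANNTTCC, a motif of the kind that NF-kappaB binds, and because these genes include the neutrophil and monocyte attractants and Il6. Each is the 250 bases before the gene's start in RefSeq (GRCm38.p6), read 5′ to 3′ on the gene's strand, with the motif in capitals:
Cxcl1, chr5:90890995-90891244, plus strand: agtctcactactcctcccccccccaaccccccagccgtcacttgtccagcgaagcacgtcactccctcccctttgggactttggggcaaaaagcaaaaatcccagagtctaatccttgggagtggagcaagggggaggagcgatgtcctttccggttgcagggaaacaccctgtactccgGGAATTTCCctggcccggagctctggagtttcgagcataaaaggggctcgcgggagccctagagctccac
Cxcl2, chr5:90903649-90903898, plus strand: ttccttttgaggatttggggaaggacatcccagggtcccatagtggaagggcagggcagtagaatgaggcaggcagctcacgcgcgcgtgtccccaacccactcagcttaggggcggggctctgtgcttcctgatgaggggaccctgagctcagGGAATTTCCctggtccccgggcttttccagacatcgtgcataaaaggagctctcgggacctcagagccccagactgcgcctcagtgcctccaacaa
Il6, chr5:30012864-30013113, plus strand: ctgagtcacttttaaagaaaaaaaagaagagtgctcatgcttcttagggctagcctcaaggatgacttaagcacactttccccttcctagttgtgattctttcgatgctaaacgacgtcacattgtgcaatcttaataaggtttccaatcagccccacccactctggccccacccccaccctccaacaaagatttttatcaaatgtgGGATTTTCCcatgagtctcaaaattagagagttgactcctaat
Ccl12, chr11:82101595-82101844, plus strand: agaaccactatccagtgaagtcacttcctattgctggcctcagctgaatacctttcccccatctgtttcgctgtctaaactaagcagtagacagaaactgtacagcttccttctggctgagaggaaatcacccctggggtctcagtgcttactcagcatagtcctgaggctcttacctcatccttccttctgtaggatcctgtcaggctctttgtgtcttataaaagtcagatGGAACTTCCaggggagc

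The motif lay 61, 87, 34 and 8 bases before the start of Cxcl1, Cxcl2, Il6 and Ccl12. Searched on both strands, where a match to these letters often reads on both and was counted once, it was present in 17 of the 97 member promoters in the table (17.5%), against 3.59% of all 32851 promoters. The 83 member genes with a promoter in the table had it in 17 cases, among them also Cxcl3, Cxcl10, Ccl1, Il1r2 and Il12a. A match of letters is a description of the window and shows no binding.

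Of 69 members tested, 23 were lower in CiPSC than in somatic cells, led by Ccl12, Cxcl12, Ccl6, Cxcl1 and Cxcl5, and 2 were higher, Il17b and Il23a. Lower members made up 33.3% of those tested, against 13.3% of all 16497 genes tested, and higher members 2.9%, against 14.9%. The median log2 difference was -0.53 over the members and -0.11 over all genes. A gene was called at a limma adjusted p under 0.05 and a change of at least 2-fold, in a model with group and set over all samples. Where a bulk sample is lower, fewer cells of a type and less RNA per cell cannot be told apart.

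By family, 5 of 10 CC chemokines, 4 of 9 CXC chemokines and Cx3cl1 were lower in CiPSC. Of 24 interleukin receptors or antagonists 10 were lower, and of 19 interleukins 3 were lower and 2 higher. None of the 6 chemokine receptors tested was called (Ccr1l1, Ccr2, Ccr9, Cxcr1, Cxcr4 and Cxcr5). Of these 6, only Cxcr5, the receptor that guides B cells, passed the adjusted p (0.00791), with a log2 difference of 0.73, which is under 2-fold. All calls among the chemokine genes were thus of ligands, and a difference between the families was not tested.

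Cxcl12 keeps blood stem cells in the bone marrow and is made by stromal cells. In set 1 it read 238, 52.1, 46.6 and 113 in CiPS34, MNF CiPS7, CiPS50 and CiPS21, against 13769 in MEF1. In set 2 it read 115, 250, 537 and 301 in MNF CiPS1, MAF CiPS3, CiPS45 and ADSC CiPS2, against 5146, 12812 and 4902 in MNF, MAF and ADSC. In set 3 the values were 446 and 209 in CiPS WT1 and CiPS WT2, against 9072 in WT MEF, and in set 5 97.2 in the control line, against 1426 in MEF3. Every CiPSC sample was below every somatic sample of its set. The fitted log2 difference was -5.18 ± 0.44 (SE; 11 CiPSC and 7 somatic samples; limma adjusted p = 3.64e-09). Its main receptor Cxcr4 was low throughout: 49.4 and 24.9 in CiPS WT1 and CiPS WT2 against 76.2 in WT MEF, 123 and 85.4 in the SKM-FSK lines against 63.7 in MEF2, and under 16 in all 6 samples of set 5.

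Ccl12 attracts monocytes in the mouse. It was listed in sets 3, 4 and 5 and read 29.8 and 34.1 in CiPS WT1 and CiPS WT2 against 4057 in WT MEF, and 61.7 in the control line against 840 in MEF3. The groups did not overlap, and the log2 difference was -5.71 ± 0.59 (SE; 3 CiPSC and 3 somatic samples; limma adjusted p = 3.34e-05). Its neighbour Ccl2, the main monocyte attractant, read 440, 647 and 559 in the 3 CiPSC samples, against 3368 in WT MEF and 1869 in MEF3. Ccl2 was called at -2.93 ± 1.01 (SE; limma adjusted p = 0.0432), and leaving out CiPS WT1 or CiPS WT2 ended the call (adjusted p up to 0.0888). Ccl7, between these genes on the chromosome and also a monocyte attractant, read 542 and 508 in the WT lines against 3217 in WT MEF, and its difference of -2.72 missed the threshold (limma adjusted p = 0.0551).

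CiPS WT1 and CiPS WT2 held more Ccl2 and Ccl7 than the ESC of their set, which read 124 and 41.5. The summed intensity of 7 fibroblast markers was 14581 and 17199 in these lines, against 1312 in ESC3 and 135540 in WT MEF. The part of these markers in the Ccl2 and Ccl7 values was not tested.

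The neutrophil attractants Cxcl1 and Cxcl5 lie in the same row of genes on chromosome 5. Cxcl1 read 20.6, 139, 19.7 and 57.2 in the CiPSC lines of set 2, against 4271, 500 and 4775 in MNF, MAF and ADSC. Outside set 2 it read 21.2 and 25.6 in the WT lines against 122 in WT MEF, and 24.2 in the control line against 734 in MEF3. No CiPSC sample reached a somatic sample of its set, and the log2 difference was -4.80 ± 0.73 (SE; 7 CiPSC and 6 somatic samples; limma adjusted p = 5.4e-05). Cxcl5 read 36.1 to 64.4 in the CiPSC of set 2 against 1099 to 1911 in its somatic samples, with a fitted difference of -3.84 ± 0.45 (limma adjusted p = 3.27e-06). Within sets the difference in Cxcl5 ranged from -4.83 in set 2 to -1.67 in set 5.

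Ccl6 and Ccl4 were lower in CiPSC too, and macrophage genes are given beside them. Ccl6, a myeloid chemokine of rodents, read 19.4 to 35.3 in the CiPSC of set 2, against 91.2, 12952 and 342 in MNF, MAF and ADSC. Its log2 difference was -4.81 ± 1.02 (SE; 5 CiPSC and 5 somatic samples; limma adjusted p = 0.00177). Ccl4, an attractant of monocytes and T cells, read 31.0 and 34.1 in CiPS WT1 and CiPS WT2 against 926 in WT MEF. In set 2 it read 38.5 to 46.8 in the CiPSC lines, against 134, 269 and 108 in MNF, MAF and ADSC. It was lower by 2.47 over the sets that listed it (SE 0.42, limma adjusted p = 0.000153). The summed intensity of 6 macrophage markers (Cd68, Ptprc, Fcgr3, C1qc, Itgam and Cd14) in set 2 was 17540 in MAF, 1014 in MNF and 2563 in ADSC. The CiPSC lines had 856 to 3318. Between MNF and ADSC, MNF had the lower sum and the higher Ccl4. In set 3 the sum was 1074 and 1892 in the WT lines, against 18915 in WT MEF. Both samples with the highest Ccl6 or Ccl4 of their set also had its highest macrophage sum. The part of macrophage RNA in these chemokine values was not tested.

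Cx3cl1, a chemokine that also exists as a membrane-bound adhesion protein, read 88.5 to 138 in the CiPSC of set 1 against 1400 in MEF1, and 86.0 and 99.8 in the WT lines against 1059 in WT MEF. ADSC CiPS2 was the exception at 559, above the 423 of ADSC and the 352 of MNF. The fitted difference was -2.67 ± 0.39 (SE; 11 CiPSC and 7 somatic samples; limma adjusted p = 8.21e-06). Ccl11, which attracts eosinophils, was lower by 2.19 on the log2 scale, a fall that was small in set 3 (-0.25) and large in set 5 (-3.73). Cxcl10, an interferon-induced attractant of T cells, was lower at -1.53 (limma adjusted p = 0.0199), with overlap within a set.

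Among receptor chains, Il4ra, Il13ra1 and Il10rb were lower as well. Il4ra, the chain shared by receptors for Il4 and Il13, read 93.6 to 170 in the CiPSC of set 1 against 552 in MEF1, and 151 to 300 in those of set 2 against 1742, 3268 and 702 in MNF, MAF and ADSC. It did not overlap within any set and differed by -2.47 ± 0.34 (SE; 11 CiPSC and 7 somatic samples; limma adjusted p = 4.6e-06). Il13ra1, its partner chain, read 72.9 to 209 in the CiPSC of set 1 against 805 in MEF1, and was lower too (limma adjusted p = 8.8e-05). Il10rb, a chain used by receptors for Il10, Il22 and type III interferons, read 48.1 to 107 in the CiPSC of set 2 against 256, 1964 and 1879 in MNF, MAF and ADSC. Its difference was -3.47 ± 0.51 (SE; 7 CiPSC and 6 somatic samples; limma adjusted p = 3.81e-05).

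The other receptor calls were smaller, between -1.99 and -1.08. Il3ra, Il15ra, Il17ra and Il17rc were lower, the last 2 being chains of the Il17 receptor. Il3ra was under 16 in every sample of set 5. Il15ra read 334 in MNF CiPS1, above the 238, 142 and 167 of MNF, MAF and ADSC. In set 5 it read 125 in MEF3 and 0.1 in the control line, a reading that can be a failed one. Of the interleukin 1 genes, Il1a (-1.64), the antagonist Il1rn (-1.53), the receptor Il1r1 (-1.12) and its accessory chain Il1rap (-1.08) were lower, while Il1b, Il1r2 and Il1rl2 were not called. For Il1rap this depended on the probe: a further probe, listed in fewer sets, differed by 0.23 in CiPSC, which was not called, and by 1.20 in ESC, which was called higher (limma adjusted p = 0.047). Il1r1 and Il1rap went the other way in set 5, where the control line read 90.7 and 1426, against 55.3 and 1049 in MEF3. Il18, a cytokine of the same family, was lower by 1.86 (limma adjusted p = 0.000142).

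Il11, a cytokine of the Il6 family made by stromal cells, differed by -2.65 ± 0.71 (SE; limma adjusted p = 0.0049), but not evenly. Within set 3 it read 344 and 346 in CiPS WT1 and CiPS WT2 against 334 in WT MEF. In set 2 it read 340 to 505 in CiPSC, against 638, 25796 and 51706 in MNF, MAF and ADSC. In set 5 the control line had 376 and MEF3 4790. The gap was thus widest in MAF and ADSC.

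Il17b and Il23a were the members higher in CiPSC. Il17b, a cytokine of the Il17 family, read 221 to 341 in the CiPSC of set 1 against 63.4 in MEF1, 249 to 560 in those of set 2 against 68.5, 75.8 and 79.9 in MNF, MAF and ADSC, 202 and 106 in the WT lines against 27.8 in WT MEF, and 270 in the control line against 37.7 in MEF3. All 11 CiPSC samples were above the somatic samples of their set, and the fitted log2 difference was 2.14 ± 0.25 (SE; limma adjusted p = 5.52e-07). Il23a, a subunit of Il23, differed by 1.29 ± 0.28 (limma adjusted p = 0.000692), with MNF CiPS1 (232) below ADSC (253).

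**Figure D1:**
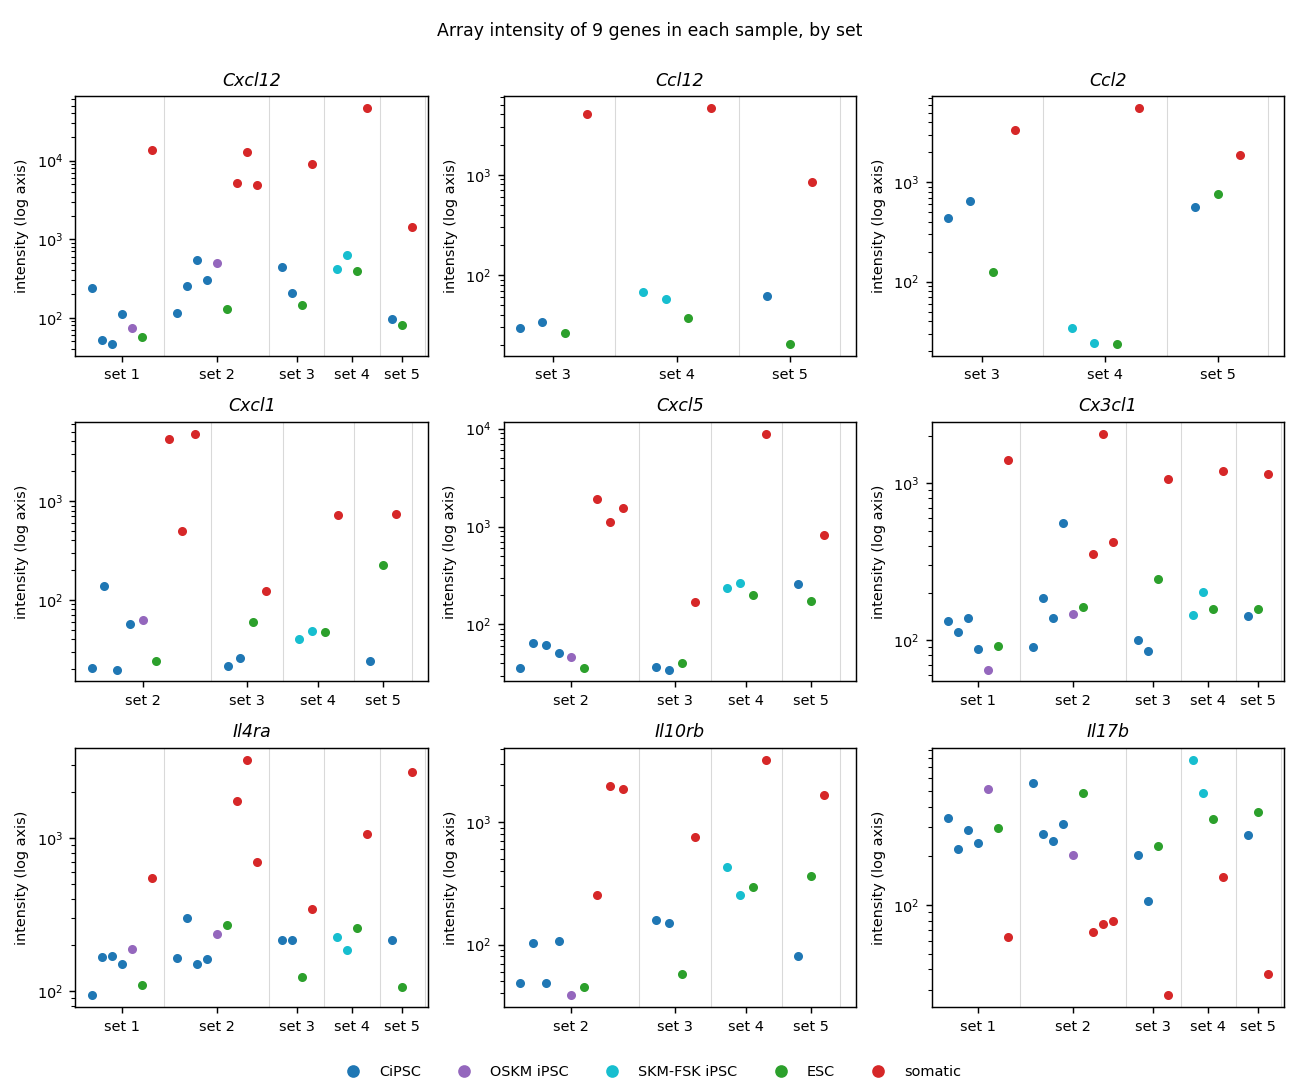
Intensity (log axis) of 9 genes in each sample, with the sets side by side and the 5 groups coloured; a set is missing where its table did not list the gene. Cxcl12, Ccl12, Cxcl5 and Il4ra lie lower in CiPSC than in the somatic samples of every set shown, and Il17b lies higher.

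ESC, the standard for pluripotent cells, differed from somatic cells much as CiPSC did. Of 69 members 25 were lower (36.2%, against 14.3% of all genes) and 3 higher (4.35%, against 15.3%). Both comparisons share the same somatic samples, so their likeness is no separate evidence. Cxcl12 read 57.2, 129, 145, 392 and 81.8 in ESC1 to ESC5, each the lowest or near the lowest of its set, against 13769 in MEF1, 46497 in MEF2 and the values above in the other somatic samples. It differed by -5.98 ± 0.51 (SE; 5 ESC and 7 somatic samples; limma adjusted p = 7.8e-09). Ccl2 differed by -4.64 ± 0.94 and Ccl7 by -4.95 ± 0.93 (limma adjusted p = 0.00348 and 0.0022; 3 ESC and 3 somatic samples). Called in ESC and not in CiPSC were Ccl7, Cxcl14, Il12b, Il31ra and, higher, Ccl25, while Il1a and Il1r1 were called in CiPSC alone; none of these was called between CiPSC and ESC by the direct test. A further probe of Cxcl14 was called lower in CiPSC too (-1.18, limma adjusted p = 0.0258), so for this gene the call depends on the probe. Il11 was called at -2.22 (limma adjusted p = 0.0423), and leaving out any of 7 of the 12 samples ended the call: ESC1, ESC2, ESC3, ESC5, MAF, ADSC or MEF3 (adjusted p up to 0.121).

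Ccl25 attracts developing T cells through Ccr9. It read 139, 228, 795, 751 and 2368 in ESC1 to ESC5, against 99.0 in MEF1, 70.9 to 266 in the somatic samples of set 2, 69.5 in WT MEF, 244 in MEF2 and 50.2 in MEF3. The difference was 2.27 ± 0.59 (SE; limma adjusted p = 0.00437), and ranged from 0.49 in set 1 to 5.56 in set 5. A further probe of Ccl25 read 114 in ESC4 against 59.4 in MEF2 in set 4, and 4.67 in ESC5 against 19.0 in MEF3 in set 5, both near or under the floor there.

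**Figure D2:**
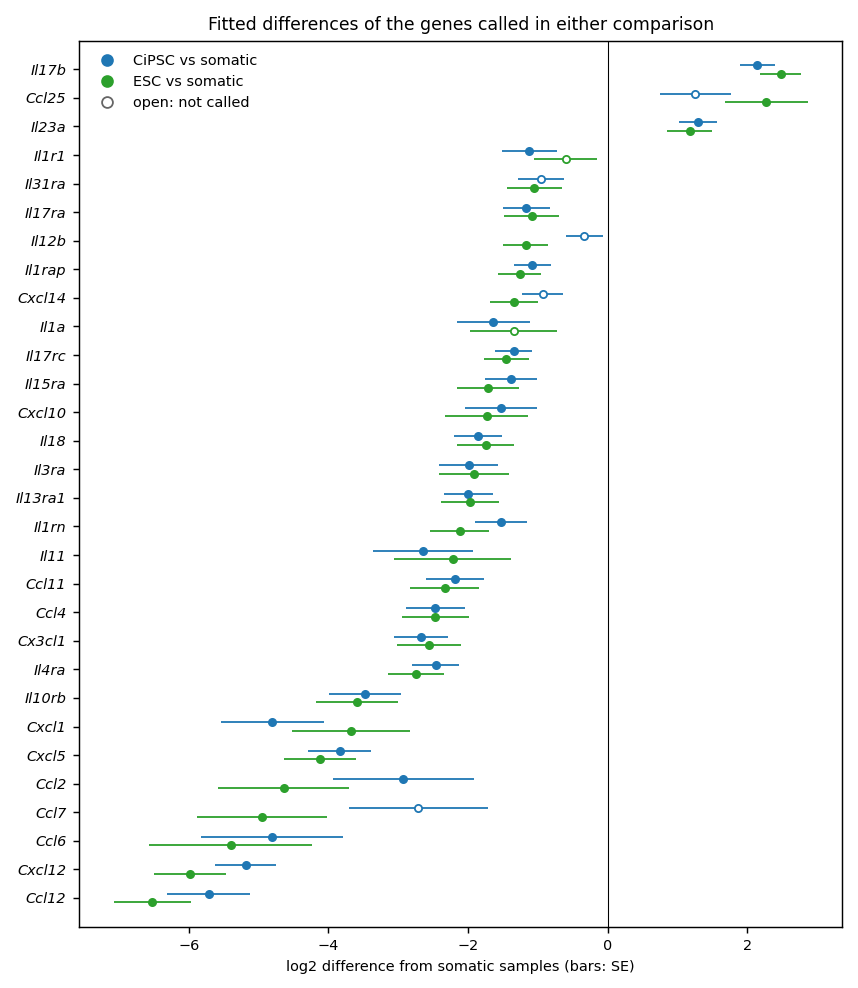
Fitted log2 differences from somatic samples (points, with SE as bars) of the members called in CiPSC or in ESC; open points were not called. The largest falls were those of Ccl12 and Cxcl12 in both groups, and Il17b, Ccl25 and Il23a lie right of 0.

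Directly compared with ESC, CiPSC differed in 0 of 69 members by limma, and 2 had an unadjusted p under 0.05. Over all genes 0.0303% were called. The nearest members were Il12b (0.84 ± 0.31, SE; limma adjusted p = 0.742) and Ccl7 (2.23 ± 1.00, SE; limma adjusted p = 0.997), both higher in CiPSC. The intervals are wide for genes listed in few sets, and the absence of a call does not show equal levels.

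The OSKM iPSC lines, in sets 1 and 2, had 7 of 48 members lower (14.6%, against 10.1% of all genes) and 1 higher (2.08%, against 12.2%). Cxcl12 read 75.2 and 502 in OSKM iPS1 and OSKM iPS2, against 13769 in MEF1 and 4902 to 12812 in set 2, a difference of -4.91 ± 0.71 (SE; limma adjusted p = 2.19e-05). Cx3cl1 was lower by 3.12, Il13ra1 by 2.80, and Il3ra, Il4ra, Ccl11 and Il2ra by 2.30 to 1.11. Leaving out MAF ended the call of Ccl11, and leaving out MNF that of Il2ra. Il17b was higher by 2.24 (limma adjusted p = 0.000356).

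In set 4 the SKM-FSK iPSC lines had 14 of 66 members lower (21.2%, against 8.09% of all genes) and 1 higher, Il17b (1.52%, against 7.53%). Ccl2 read 34.5 and 24.1 in the lines against 5567 in MEF2, and Ccl7 17.8 and 22.2 against 3928. Ccl12 read 67.6 and 57.8 against 4615. ESC4, in the same set, read 23.7, 27.2 and 37.3 for these genes. The log2 differences were -5.97 ± 1.24 for Ccl2, -6.52 ± 1.23 for Ccl7 and -5.99 ± 0.73 for Ccl12 (SE; limma adjusted p = 0.0103, 0.00622 and 0.000524). Only set 4 holds these lines, beside 1 somatic sample, and without either line 5 members stayed called, Ccl7 and Ccl12 among them. The call of Ccl2 ended without either line (limma adjusted p up to 0.0716). Il33, an alarm cytokine of stromal and epithelial cells, read 3.75 and 7.33 in the lines and 0.25 in ESC4, against 1833 in MEF2, and was not tested because its listing in sets 4 and 5 alone left too few residual degrees of freedom. MEF2 also had the highest macrophage sum of its set, 15358 over 10 markers, against 2120 and 2602 in the SKM-FSK lines and 3086 in ESC4.

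Genes that act beside the members were taken as lists of related cytokines and of signal transduction. Of 27 related cytokines and receptors tested, 6 were lower in CiPSC than in somatic samples and 0 higher: Osmr, the oncostatin M receptor (-4.92), Csf1, the macrophage growth factor (-3.66), Tnfrsf1a, a TNF receptor (-3.44), Il6st, the shared chain gp130 (-2.57), Csf3 (-1.37) and Ppbp. The list's median was -0.37, and its calls stand beside 13.3% lower and 14.9% higher among all genes. Of 28 signal transduction genes, 10 were lower and 2 higher. Stat3 (-3.24 ± 0.30, SE; limma adjusted p = 1.21e-08) and Nfkbiz (-2.84 ± 0.38) led the falls, followed by Myd88 (-2.26), Jak2 (-2.17), Nfkb2 (-1.77), Rela (-1.63) and Jak1 (-1.63), while Jak3 (1.49) and Tyk2 (1.44) were higher. The list's median was -0.51. In set 5 Tnfrsf1a and Rela went the other way, with 207 and 966 in the control line against 128 and 620.5 in MEF3. The other genes named here as lower were lower in that set too. In ESC against somatic samples the counts were 6 lower and 0 higher for the related cytokines, and 10 lower and 1 higher for signal transduction, beside 14.3% lower and 15.3% higher among all genes.

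Along the treatment, set 5 gave 1 sample per step, so differences have no test and are given by size. On day 12, 20 of 113 members were past 2-fold higher than in MEF3 (20.5% of all genes were) and 37 past 2-fold lower (25.9% of all genes). From day 12 to day 20, 6 were higher and 3 lower (2.52 and 0.813% of all genes). From day 20 to day 32, 10 were higher and 8 lower (5.71 and 3.88% of all genes). In the CiPSC control line 11 were higher and 30 lower than on day 32 (17.1 and 15.9% of all genes). The members' share of lower genes was 32.7% on day 12 and 26.5% in the control line.

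A group of 9 members was at least 2-fold higher on all 3 days than in MEF3, the control line and ESC5: Ccl7, Ccl11, Cxcl2, Il1r1, Il1rapl1, Il6, Il13ra2, Il21r and Il33. The share of all genes with this course was not counted, so the 9 cannot be set against it. On day 12 alone, 17.7% of members and 20.5% of all genes were past 2-fold higher than in MEF3. Ccl11 read 2367 in MEF3, 9624, 8961 and 7579 on days 12, 20 and 32, and 179 in the control line, with 97.1 in ESC5. Ccl7 followed the same course with 644, 6853, 6112, 5415 and 151, and 243 in ESC5. Both attractants were thus highest on day 12. Ccl12, next to them on the chromosome, read 840 in MEF3, 4548, 2769 and 522 on the 3 days and 61.7 in the control line, so that by day 32 it was below MEF3. Ccl2, in the same row, stayed level at 1869, 1714, 1216 and 1709 before 559 in the control line.

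Il33 read 32.9 in MEF3, 1249, 2638 and 3782 on days 12, 20 and 32, and 7.58 in the control line, which makes day 32 at least 236-fold above the control line. Il6, whose promoter is shown above, read 142, 328, 433 and 1287 and then 22.6, with 44.9 in ESC5. The decoy receptor Il13ra2 read 64.4, 914, 942 and 1446 and then 20.9. Cxcl2 read 137, 369, 564 and 776 and then 19.3. All 4 had their highest value on day 32. The ligand-binding receptor Il1r1 ran differently, with 55.3 in MEF3, its peak of 1809 on day 12, 1343 on day 20, 595 on day 32 and 90.7 in the control line. Il1rapl1, a relative of the Il1 receptors known from synapses, read 28.2 in MEF3 and 3783, 2800 and 2936 on the 3 days, the largest step of any member on day 12 (134-fold). Il21r read 13.7 in MEF3, under the floor, and 216, 498 and 622 on the 3 days.

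These are differences from MEF3, a single culture. With the control line and ESC5 alone as references 18 members were at least 2-fold higher on all 3 days, which was not counted over all genes either. The added genes were Ccl12, Cx3cl1, Cxcl1, Cxcl15, Cxcr3, Il4ra, Il10rb, Il11 and Il1rapl2. Cxcl1 read 734 in MEF3, 600, 728 and 824 on the 3 days and 24.2 in the control line. Cxcl15, a lung-type neutrophil attractant of the mouse, read 350 in MEF3, 558, 1252 and 1588 on the 3 days and 82.5 in the control line. In set 4, MEF2 read 1833 for Il33, 185 for Il13ra2 and 303 for Il6, so the low Il33 of MEF3 did not hold for that MEF culture. The Il1r1 of MEF3, 55.3, was the lowest of 6 somatic samples, whose median was 993 and highest value 3036. Ccl7 and Ccl12 read 3217 and 4057 in WT MEF, and 3928 and 4615 in MEF2, against 644 and 840 in MEF3. These samples come from sets normalized separately. The summed intensity of 10 fibroblast markers was 64286 in MEF3, 203190, 153720 and 131360 on the 3 days, 1487 in the control line and 4958 in ESC5. The lymphoid markers summed to 4357 in MEF3, 1430, 1144 and 619 on the 3 days, 1432 in the control line and 693 in ESC5. Most of the MEF3 sum came from Cd3e (2006) and Cd79a (1987), while Cd4 read 188.5, Cd8a 155 and Cd3g 20.6 there. Cd3g did not fall, with 24.8 on day 32. The part of either sum in the members' values was not tested.

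Day 32 brought further changes. Ccl17, which attracts T cells through Ccr4, read 25.7 in MEF3, 51.1 and 55.3 on days 12 and 20, and 1056 on day 32, a 19.1-fold step, and stayed at 728 in the control line, with 157 in ESC5. Cx3cl1 read 499 on day 20 and 1605 on day 32, and Il18 304 and 922. At the same step Ccl12 was 5.30-fold lower, and Ccr3, the eotaxin receptor, at least 3.75-fold lower, with 155.8 on day 12 and 5.25 on day 32. The summed extraembryonic endoderm markers were 4244.5 in MEF3 and 3540, 8961 and 21313 on the 3 days. The mesothelial and epithelial markers summed to 5565 in MEF3 and 2012, 4808 and 10834 on the 3 days. Krt8 read 383 and 271 on days 12 and 32, and Sox17 309 and 222, so not every marker rose. The part of these markers in the members' values was not tested. Pluripotency markers summed to 1270 in MEF3, 675, 682 and 1778 on the 3 days, 55103 in the control line and 75398 in ESC5. From day 20 to day 32 Esrrb rose from 97.2 to 1125, and Pou5f1 and Zfp42 rose less. Sox2, Nanog, Fgf4 and Dppa4 were lower on day 32 than on day 20.

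MEF3 alone had the highest values of 27 members, by at least 2-fold over every other sample of set 5 (23.9% of members, against 16.2% of all genes). Ccl3, an attractant of monocytes and T cells, read 876 in MEF3 and 16.3, 16.3 and 16.9 on days 12, 20 and 32, a 53.6-fold difference on day 12. Cxcl12 read 1426 in MEF3 and 126, 105 and 129 on the 3 days. Il12rb1, a receptor chain for Il12 and Il23, read 1762 and then 191, 157 and 149. The summed macrophage markers were 9428 in MEF3, 1637, 1608 and 3296 on the 3 days, 3577 in the control line and 5542 in ESC5. ESC5 thus had a higher sum than the 3 days and the control line, but 3958.5 of it came from Cd68 alone. Cd68, Cd14 and Fcgr1 were higher in ESC5 than in MEF3, and the other markers were lower. C1qa and C1qb read 21.5 and 15.6 in ESC5, against 884 and 1073.5 in MEF3. Ccl3 in ESC5 lay within the range of the 3 days and the control line. The part of the macrophage markers in the Ccl3 value was not tested. Of 26 of these members that other MEF sets listed, 16 were under 2-fold above ESC in every such set, among them Il12rb1, Ccr9, Il27 and Il12a, so their high level in MEF3 was not shared by the other MEF.

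The members at least 2-fold higher in both pluripotent samples of set 5 than in MEF3 and on days 12 to 32 were Ccl9, Il17b and Il23a. Genes with this course were not counted over all genes, so the members cannot be set against that share. Il23a read 234 in MEF3, 173, 134 and 104 on the 3 days, 599 in the control line and 481 in ESC5. Il17b read 37.7, 26.5, 25.8, 58.8, 270 and 374 in the same order. Ccl9, a myeloid chemokine of rodents, was under 16 in MEF3 and on all 3 days and read 301 in the control line and 173 in ESC5. In set 4 it ran the other way, with 29.7 in SKM-FSK1 and 37.2 in ESC4 against 326 in MEF2.

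**Figure D3:**
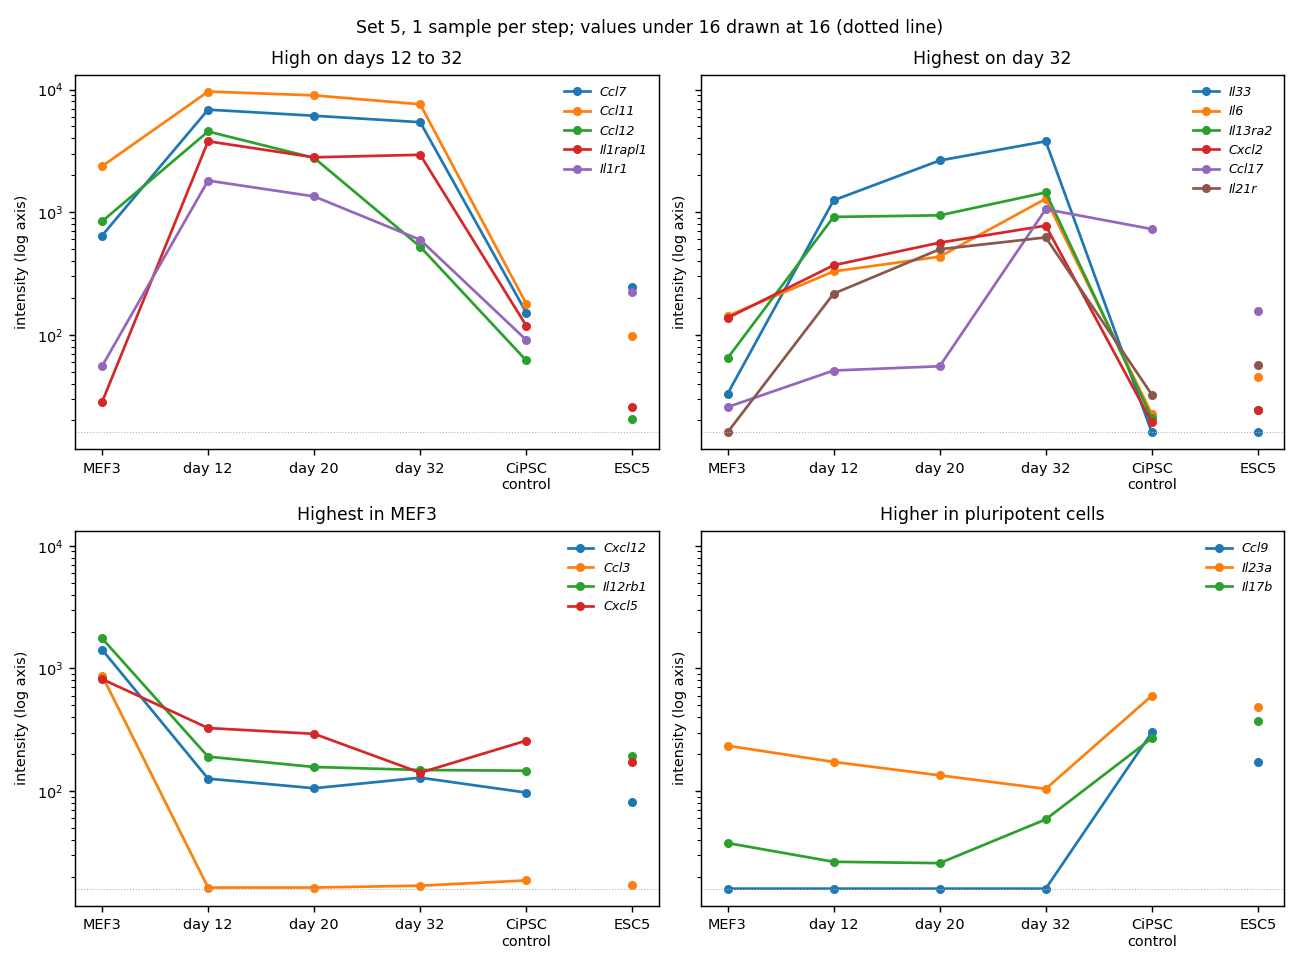
Intensity (log axis) of 18 members over MEF3, days 12, 20 and 32, the CiPSC control line and ESC5, 1 sample each, with readings under 16 drawn at 16. Ccl7 and Ccl11 stay high on the 3 days, Il33 and Il6 are highest on day 32, Cxcl12 and Ccl3 are high in MEF3 alone, and Ccl9, Il23a and Il17b are highest in the pluripotent samples.

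Of the 16 chemokine receptors, Ccr1, Ccr8 and Cxcr4 were under 16 in all 6 samples of set 5. Cxcr5 read 1081 in MEF3, 2107, 3063 and 5129 on the 3 days, 3862 in the control line and 4019 in ESC5. Cxcr3, the receptor of Cxcl9 and Cxcl10, read 51.6, 42.3, 89.0 and 177 and then 9.67. Among the related genes, Ackr4, an atypical receptor that clears Ccl19, Ccl21 and Ccl25, read 32.9 in MEF3 and 1778, 1637 and 359 on the 3 days, with 31.8 in the control line. Lifr, the receptor chain of the stem cell cytokine Lif, read 62.6, 411, 528 and 1258 and then 973. Socs3, the feedback inhibitor of gp130 signalling, read 2120 in MEF3, 7921, 7206 and 15114 on the 3 days and 6672 in the control line.

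The 3 starting populations of set 2 differed among themselves, again with 1 sample each and no test. Of 63 members listed, 34 were within 2-fold across MNF, MAF and ADSC, a share that was not counted over all genes. MAF was at least 2-fold highest for 8 of the 63 (Ccl6, Cx3cl1, Cxcl12, Cxcl14, Cxcl15, Il13ra1, Il18 and Il1r1), beside 595 of all 14107 genes (4.22%). MNF was highest for 4 (Il3ra, Il1r2, Il17rd and Cxcl9; 10.7% of all genes) and ADSC for 3 (Il11, Il1a and Il34; 3.52% of all genes). Il18 read 3020 in MAF, 209 in MNF and 464 in ADSC. Il1a read 2087 in ADSC and 107 in MNF. Il3ra read 1923 in MNF, 750 in MAF and 419 in ADSC.

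In the CiPSC lines from these cells the genes with the widest gaps between origins lay near the levels of the other pluripotent samples. Ccl6 read 35.3 in MAF CiPS3 against 12952 in MAF, with 19.4 in MNF CiPS1 and 23.8 in ADSC CiPS2. Il11 read 443 in MAF CiPS3 and 505 in ADSC CiPS2, against 25796 in MAF and 51706 in ADSC. Il18 read 187 in MAF CiPS3 against 3020 in MAF. Il34, a ligand of the Csf1 receptor, read 273 in ADSC CiPS2 against 224 in ADSC, and 53.0 in MAF CiPS3 against 109 in MAF. Il1r2, the decoy receptor of Il1, read 1096 in MNF CiPS1, 1873 in MAF CiPS3 and 376 in ADSC CiPS2, against 1569, 391 and 188 in MNF, MAF and ADSC, and ESC2 read 64.8.

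**Figure D4:**
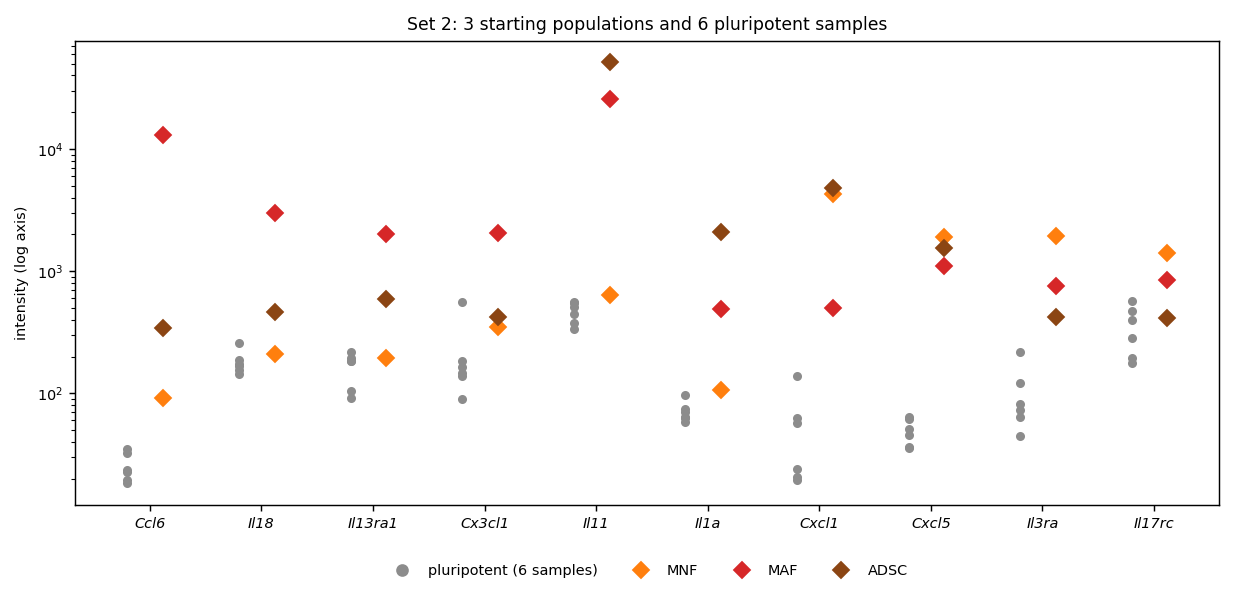
Intensity (log axis) of 10 members in set 2: the 6 pluripotent samples (grey) left of MNF, MAF and ADSC (coloured). MAF stands highest for Ccl6, Il18 and Il13ra1, and ADSC for Il11 and Il1a. For Ccl6, Il11 and Il1a every pluripotent sample lies below MNF, MAF and ADSC. For Cx3cl1, Il18, Il13ra1 and Il17rc some pluripotent samples lie above an origin.

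For 14 member genes the array carried several probes, and some disagreed in set 5. A probe of Il18r1, a chain of the Il18 receptor, read 4537 in the control line and 3027 in ESC5 against 9.92 in MEF3, while the probe listed in all sets read 84.7 and 74.0 against 152. The main probe of Il6ra read 282 in the control line and 44.1 in ESC5 against 554 in MEF3, and its further probe 45.4 and 71.0 against 38.3. Which probe follows the transcript was not tested.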

How the data were processed

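Total RNA labelled with Cy5 was hybridised to a 1-colour whole-genome oligonucleotide array of the mouse, per the labels. The authors deposited 1 table of normalized intensity on a linear scale, with 1 column per sample in 30 samples. Per the series' design text each column stands for 3 replicates (sets 1, 2 and 4) or 2 (sets 3 and 5) and the 5 sets were normalized separately; whether replicates were separate cultures is not stated, so p-values measure the spread between these samples. Each of scanner, background correction and probe filter is not given in the sources used here. Genes came from the platform annotation (4547 probes had no gene and 0 had several).

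Deposited intensities under 16 were set to 16 and converted to log2. A gene was represented by the probe measured in most samples and then by the highest mean. Each probe without a gene symbol was kept as a unit of its own, so counts and shares of all genes include such probes. limma 3.58.1 in R 4.3.3 fitted group and set to all 30 samples; adjusted p-values follow Benjamini and Hochberg across the genes tested in a comparison. Testing needed values in at least 2 sets with both groups (1 for SKM-FSK iPSC) and 3 residual degrees of freedom. Calls needed an adjusted p under 0.05 and a change of at least 2-fold. Because other groups also inform the set terms, fitted and within-set differences need not be equal. The procedure was tested on simulated data. Differences along the treatment and between origins have 1 sample a step and no test; a fold against a value under 16 is a lower bound.

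Genes to name were picked by rule: called members (up to 12 each way per comparison), the 6 largest rises and falls of each step among those at 32 or more, the highest member of each origin, and Cxcl12, Cxcr4, Il6, Il6ra, Ccl2, Cxcl1, Cxcl5, Il11, Il33 and Il34. Not every gene so picked is described above. Left out were Ccl20, Il20, Il13, Il17rb, Il7r, Il31 and the values of several members called in SKM-FSK iPSC. Ccl26 was left out too, with 2.25 in MEF3 and 543 on day 12, at least 33.9-fold higher. Other named genes, among them those of the probe comparison, the promoters and the origins, were chosen after their values were seen. Members, lists and tests were chosen with earlier results of these data known. The number of arrays limits the precision. Whether replicate numbers in the titles pair samples was checked by the correlation of deviations from group means, which was 0.2, -0.253 and 0.19 for numbers 1, 2 and 3, so they were not treated as pairs. Promoters came from RefSeq (GRCm38.p6).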

Additional observations from a re-analysis of the deposited data

Results flagged for a closer look

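Among 19 groups of 4 to 10 values examined for a sample far from the others, 2 stood out, and chance gives about 1 in 20. For Ccl4, WT MEF was 5.47 above the ESC of its set on the log2 scale, while the other 5 somatic values lay between 1.1 and 2.42; WT MEF also had the highest summed macrophage markers of set 3, whose part was not tested. For Il6ra, MEF3 was 3.65 above the ESC of its set, while the other 6 lay between -0.23 and 0.38. Il11 in CiPSC minus somatic samples was 0.04 in set 3, against -0.79 in set 1 and -4.53 in set 2: both CiPSC lines of set 3 were above their MEF and the CiPSC lines of the other sets were below their somatic samples. The difference between sets was not tested.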

How the results depend on the processing

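Single genes were followed under the alternatives for up to 12 called members each way per comparison and a fixed list. Among these, no called member reversed its direction. Where every probe was its own unit, only a gene's main probe was followed. The further probe of Il1rap, given above, went the other way in ESC. Some uncalled members crossed 0, such as Il34 in SKM-FSK iPSC, with log2 differences of -0.72 to 1.52. With normalization, offset, floor, probe choice, variance trend and set term varied, the number of members called stayed within 1.5 times of 25 (CiPSC against somatic), 28 (ESC), 8 (OSKM iPSC) and 15 (SKM-FSK iPSC), and 0 for CiPSC against ESC. Leaving out 1 sample gave 20 to 28, 23 to 30, 8 to 10 and 5 to 17; the 5 arose without either SKM-FSK line. With the replicate number in the titles as a block, which the check in the methods did not bear out, 14 were called for ESC, 4 for OSKM iPSC and 5 for SKM-FSK iPSC, on 47 members tested. With the floor at the smallest positive value, 15 members passed 2-fold between days 12 and 20 (9 with the floor of 16) and 28 between days 20 and 32 (18); low readings of set 5 then count in full. Without MEF3 as a baseline, an alternative chosen after seeing the data, 18 members were higher on all 3 days (9 with it). Of the values of single genes under the alternatives, 1676 kept their side of the threshold, 51 lost it, and 6 gained it.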

Other observations

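Along the treatment the courses of the neighbouring Ccl2, Ccl7, Ccl11 and Ccl12 differed in part. The log2 difference of day 12 minus MEF3 was 2.02 for Ccl11, and Ccl7 ran alike, while Ccl2 was level. In the other row of chromosome 11, Ccl3, Ccl4 and Ccl6 were highest in MEF3 and Ccl9 was highest in the control line. Among genes of the lists outside the rule, Tnfrsf1a read 128 in MEF3, 2658, 1996 and 1222 on days 12, 20 and 32, and 207 in the control line. Nfkbia, the inhibitor of NF-kappaB, read 223, 3130, 2881 and 1876 and then 3663. Ikbkg, a subunit of the kinase that releases NF-kappaB, read 0.167 in MEF3 and 2944 on day 12, a reading in MEF3 that can be a failed one.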
